A study of Mus musculus with 4 samples.

Results

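MyoD binding was described at 4 genes of fasting and fat metabolism: Ppard, Ppargc1b, Angptl4 and Fgf21. They were selected by symbol from 2 lists of MyoD peaks in mouse myotubes, and their peaks were known when they were selected. They are 4 of the 7235 genes that the lists name, and they hold 12 of the 11907 peaks of the list labelled with pyruvate and 10 of the 19338 peaks of the list labelled without. Primary myoblasts of C57BL/6 mice aged 2 weeks were grown in 20% serum and differentiated for 5 days in 2% horse serum into myotubes, the fused multinucleated muscle cells. The myotubes then spent 24 hours in differentiation medium that did or did not contain pyruvate, the end product of glycolysis and a fuel of mitochondria. One MyoD ChIP library (antibody SC-760) and 1 input were made per condition, so the samples were 4, the inputs were not analysed here, and nothing between conditions has a replicate or a p-value.

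MyoD is a transcription factor of the bHLH class that binds E-boxes, short DNA words of the form CANNTG, and drives the muscle programme. Ppard encodes PPAR-delta, a nuclear receptor for fatty acids that is the main PPAR of skeletal muscle and pairs with an RXR receptor on DNA. Ppargc1b encodes PGC-1 beta, a coactivator that nuclear receptors recruit to raise mitochondrial and fatty acid oxidation genes. Angptl4, an inhibitor of lipoprotein lipase, and Fgf21, a hormone of fasting and mitochondrial stress, are secreted proteins whose genes are well-known targets of PPAR receptors.

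Ppard (ENSMUSG00000002250) lies on the plus strand of chromosome 17, with its body at chr17:28369699-28438414 of mm9. Both lists held a peak just upstream of its start site. In the list labelled with pyruvate it was chr17:28369451-28369663, 212 bases wide and 248 to 36 bases upstream of the start. In the list labelled without, it was chr17:28369400-28369634, 234 bases wide and 299 to 65 bases upstream. The 2 peaks overlapped by 183 bases and their centres were 40.0 bases apart. The promoter sequence below is shown because the first of these peaks lies wholly inside it, counted from the start site, and the second covers 185 of its bases. It is RefSeq's window of 300 bases, 250 before the start and 50 after, on the plus strand at chr17:28232504-28232803 of GRCm38.p6. The files' gene and RefSeq's gene are both 68716 bases long, so the window was placed on the files' start site by distance and not by coordinates. Capitals mark every E-box CANNTG on either strand.
Ppard promoter: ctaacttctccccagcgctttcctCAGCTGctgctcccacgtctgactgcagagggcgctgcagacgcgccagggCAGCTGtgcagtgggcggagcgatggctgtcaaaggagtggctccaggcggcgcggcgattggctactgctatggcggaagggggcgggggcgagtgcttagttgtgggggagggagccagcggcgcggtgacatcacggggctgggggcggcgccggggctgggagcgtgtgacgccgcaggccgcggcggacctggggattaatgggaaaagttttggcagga

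Both E-boxes of this window were CAGCTG, a form that MyoD is well known to bind, and the CAGCTG matches are the same sites as the CANNTG matches. Their first bases lay 226 and 175 bases upstream of the start, and both lay inside the peak of each list. The related form CAGGTG had 0 matches, as did a strict PPAR response element, a direct repeat of AGGTCA spaced by 1 base. Of 32851 RefSeq promoter windows of this length, 72.3% held CANNTG, 16.3% held CAGCTG, 20.2% held CAGGTG, and 13 windows held the strict response element, all on either strand. Windows with at least 2 CAGCTG matches were 1.90% of all. A match is a word in the sequence and does not show that a protein was bound there.

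**Figure D1:**
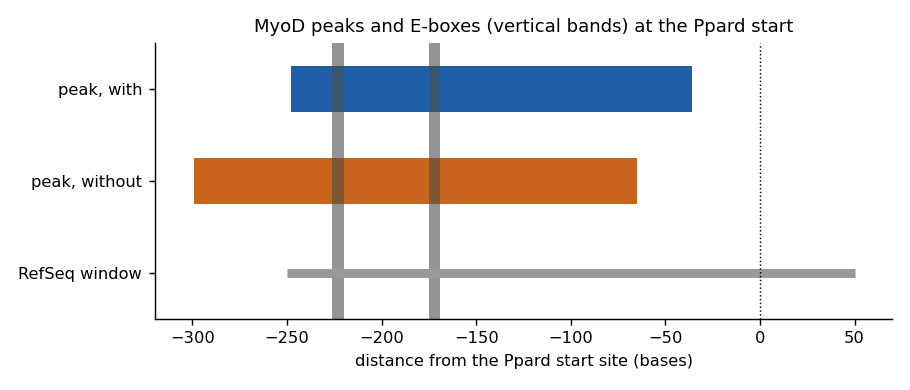
MyoD peaks of the 2 lists and E-boxes at the Ppard start. The horizontal axis is the distance from the start site in bases, the coloured bars are the peaks of the lists labelled with (upper) and without pyruvate (lower), the grey bar is the RefSeq window and the vertical bands are the CAGCTG words at 226 and 175 bases upstream. Both bands cross both peaks.

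Inside the Ppard gene, both lists held a peak 24302 and 24257 bases downstream of the start, at chr17:28394001-28394235 (234 bases wide) in the list labelled with pyruvate and chr17:28393956-28394249 (293 bases) in the list labelled without. The whole of the narrower peak lay inside the wider one. The list labelled without pyruvate held 1 further peak, chr17:28386078-28386321, 243 bases wide and 16379 bases from the start. The other list had no peak nearer than 7680 bases, so Ppard carried 2 peaks in one list and 3 in the other. Around the gene, the list labelled with pyruvate held no further peak within 50 kb, whereas the other held a peak of 191 bases in Def6 and one of 240 bases in Tead3, a TEAD transcription factor gene. These are the nearest listed genes on either side, and neither had a peak in the list labelled with pyruvate. A peak only in the list labelled without was held by 35.0% of the genes that the lists name. Within 100 kb, the peaks of Ppard included, there were 5 peaks with pyruvate, of which 5 were shared, and 7 without, of which 4 were shared.

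Ppargc1b (ENSMUSG00000033871) lies on the minus strand at chr18:61457790-61560085 and carried the most peaks of the 4 genes, 8 with pyruvate and 6 without. Genes with at least 8 peaks made up 0.857% of the named genes in the first list, and genes with at least 6 made up 4.85% in the second. The gene body is 102.296 kb long against a median of 47.2 kb over the genes with a located start. It held 7.82 and 5.87 peaks per 100 kb, where those genes had medians of 1.39 and 2.94, genes with no peak in the list counted as 0. Ppard held 2.91 and 4.37, and Angptl4, with 1 peak in a short gene, 12.8 in each list, so Ppargc1b was not the densest. These densities set all peaks of a gene, flanks included, against the length of its body. Among the 3984 genes with a peak in both lists, 12.7% had more peaks in the list labelled with pyruvate, as Ppargc1b did, 34.2% had more in the list labelled without, as Ppard did, and 53.1% had equal numbers, as Angptl4 did.

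The 2 widest Ppargc1b peaks were in both lists. One, 19748 bases into the gene in the list with pyruvate, was at chr18:61539824-61540337 (513 bases) in the list labelled with pyruvate and chr18:61539833-61540330 (497 bases) in the other, with centres 1.0 base apart. At these widths it stood at percentile 96.4 of its list with pyruvate and 96.3 of its list without. The other, 38666 bases into the gene in the list with pyruvate, was at chr18:61520922-61521419 (497 bases, percentile 95.8) and chr18:61520979-61521413 (434 bases, percentile 93.4). Both of these sites are thus wide in each library, while the remaining Ppargc1b peaks were 169 to 326 bases wide in the list with pyruvate and 148 to 279 in the list without.

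Nearer the start of Ppargc1b, a shared peak 5371 bases into the gene was 326 bases wide at chr18:61554388-61554714 with pyruvate and 279 bases at chr18:61554435-61554714 without. The peak nearest the start was chr18:61558574-61558821 (247 bases, 1264 bases into the gene) with pyruvate and chr18:61558607-61558755 (148 bases, 1330 bases into the gene) without. The narrowest peaks of the lists were 169 bases wide with pyruvate and 144 without, so the width of 148 is near the floor of its list. The peak of 148 bases stood at percentile 2.31 of widths and lay wholly inside the peak of 247 bases. This peak also lies in a 2-kb flank of ENSMUSG00000093026, a gene on the opposite strand for which the files give no symbol. RefSeq places the microRNA gene Mir378a inside Ppargc1b, and where it lies relative to these peaks was not analysed here. At the far end of the gene, a narrow shared peak was 169 bases wide at chr18:61477764-61477933 with pyruvate, the narrowest width in that list, and 176 bases at chr18:61477789-61477965 without.

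Ppargc1b held 3 peaks with no partner in the list with pyruvate and 1 in the list without. The 3 were chr18:61505978-61506266 (288 bases), chr18:61544464-61544698 (234 bases) and chr18:61554829-61555030 (201 bases). The other list came no nearer to them than 14713, 4134 and 115 bases, so the last is beside a shared site and the others stand alone. The unpartnered peak of the list labelled without was chr18:61477016-61477202 (186 bases), 562 bases from a peak of the other list. No further peak lay within 50 kb of the gene in either list. Its nearest listed neighbours were Slc26a2, a sulfate transporter gene 84524 bases away, and Arhgef37, 93363 bases away.

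**Figure D2:**
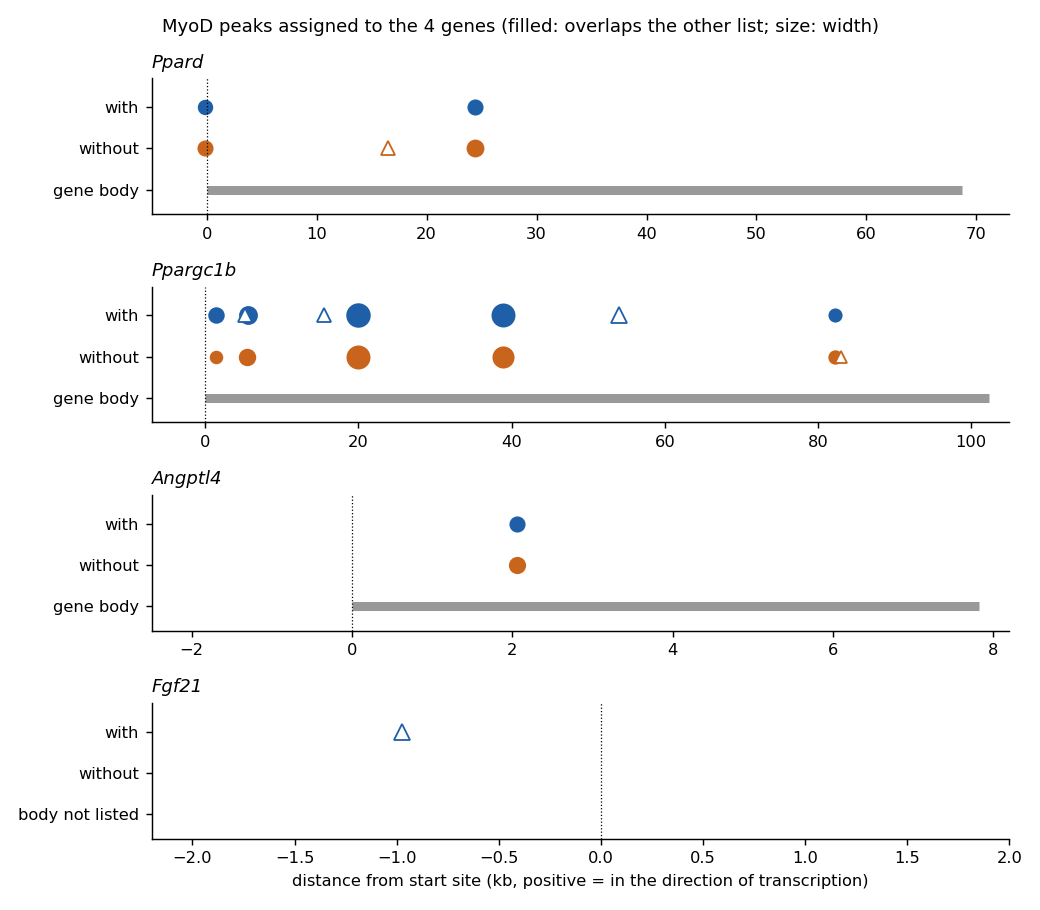
Peaks of the 4 genes by distance from the start site in kb, one panel per gene with its own scale; the grey bar is the gene body. Filled circles overlap a peak of the other list and open triangles do not, and the marker grows with peak width. Ppargc1b holds 8 and 6 peaks, Ppard 2 and 3, Angptl4 1 and 1, and Fgf21 1 and 0.

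Angptl4 (ENSMUSG00000002289) lies on the minus strand at chr17:33910695-33918520 and had 1 peak in each list, at the same site. It was chr17:33916343-33916579 (236 bases) with pyruvate and chr17:33916328-33916599 (271 bases) without, and the first lay wholly inside the second. The centres were 2.5 bases apart, a smaller shift than the median of 17.5 bases over all 8444 one-to-one peak pairs. The near edge lay 1941 and 1921 bases into the gene and the centre 2059 and 2056.5 bases, so the peak is inside a 2-kb start-site window by its edge and outside it by its centre. The gene is 7826 bases long in the files and 6676 in RefSeq, and whether the start sites differ was not tested.

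A wider peak lay on the other side of the Angptl4 start and was also in both lists. It was chr17:33920423-33920798 (375 bases) with pyruvate and chr17:33920432-33920812 (380 bases) without, with its near edge 1903 and 1912 bases upstream of the Angptl4 start. The deposited tables pair it only with ENSMUSG00000092602, an unnamed gene on the same strand. Of its bases, 97 and 88 lie within 2 kb of the Angptl4 start, but its centre lies 2090.5 and 2102.0 bases upstream, outside that flank. Of all pairings of a peak with a gene region, 98.9% with pyruvate and 99.2% without have the peak centre inside the region. The wider peak is therefore not among the 12 and 10 peaks counted here. The list labelled without pyruvate had another 196 bases wide peak in that unnamed gene, and a 234 bases wide one in Kank3, neither of which had a partner. Kank3 and Rps28 shared a further peak in both lists, 243 and 201 bases wide.

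Fgf21 (ENSMUSG00000030827), on the minus strand of chromosome 7, was the only one of the 4 with a peak in a single list. Among all 7235 named genes, 9.95% had a peak only in the list labelled with pyruvate and 35.0% only in the list labelled without. The list labelled with pyruvate held chr7:52871696-52871971, 275 bases wide and at percentile 61.3 of widths in its list. The list labelled without pyruvate held none, and its nearest peak was 22911 bases away. The files list only a flank of Fgf21, chr7:52870861-52872860, without saying on which side of the gene it lies. They pair the same peak with a flank of Fut1, a fucosyltransferase gene on the plus strand, at chr7:52870976-52872975. RefSeq orders the genes as Bcat2, Fgf21, Fut1 and Rasip1 with no overlap, and of the 4 ways to place the flanks, 1 keeps Fgf21 before Fut1 without overlap, that in which both flanks are upstream. On that reading, which assumes the same order in mm9, the peak lay 836 to 1111 bases upstream of Fgf21 and 1005 to 1280 bases upstream of Fut1, between divergent genes whose starts are 2116 bases apart. The peak cannot be assigned to one of the pair rather than the other. Fgf21 itself has a RefSeq promoter window, but that window ends 250 bases upstream and does not reach the peak, so it is not printed.

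The region of Fgf21 held more peaks in the list labelled with pyruvate, although that list is the shorter one. Within 50 kb of the flank there were 8 peaks with pyruvate and 3 without, of which 2 in each list were shared. Within 100 kb the numbers were 9 and 5, with 3 shared. The widest peak of the region lay in the upstream flank of Mamstr, which encodes a coactivator of MEF2 factors, and also in the downstream flank of Rasip1, at chr7:52894820-52895319 (499 bases) with pyruvate and chr7:52894882-52895270 (388 bases) without. Beside it, the list with pyruvate held 2 further peaks of 198 and 214 bases, and the list without held 1 of 228 bases inside Mamstr. Bcat2, the mitochondrial branched-chain aminotransferase gene, had 2 peaks with pyruvate, 190 and 219 bases wide, and 0 without. The Fgf21 peak, known when the gene was picked, is 1 of the 8. Within 50 kb, Ppard had 2 peaks with pyruvate and 5 without, Ppargc1b 8 and 6, and Angptl4 3 and 5. Over the whole lists, 71.8% of peaks with pyruvate and 44.2% without were shared. Other regions of this size were not counted, so nothing is read from the Fgf21 numbers. These counts are of 1 library each, and whether read depth or calling differed between the libraries was not tested.

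**Figure D3:**
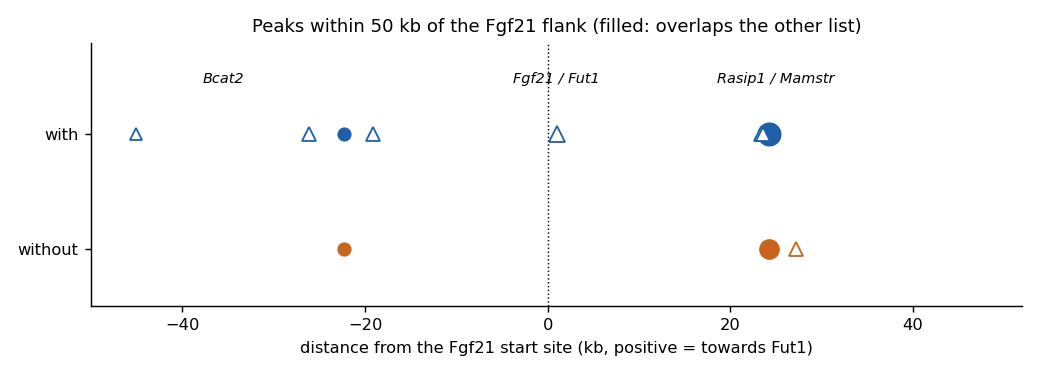
Peaks within 50 kb of the Fgf21 flank by distance from its start site in kb, positive towards Fut1. The upper line is the list labelled with pyruvate and the lower the list labelled without; filled circles overlap the other list, open triangles do not, and the marker grows with width. The upper line holds 8 peaks, of which the 2 triangles beside the widest peak cover each other, and the lower 3.

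Across the 4 genes, 8 of 12 peaks of the list with pyruvate were shared, or 66.7%, beside 71.8% of all peaks in that list. In the list without pyruvate 8 of 10 were shared, or 80.0%, beside 44.2% of all its peaks. The genes were picked with these peaks and their overlap known and most of the peaks are in Ppargc1b, so the whole-list shares are given for scale and nothing is read from them. Without Ppargc1b, 3 of 4 peaks were shared in each list.

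The widths of shared peaks differed in direction between the genes. Both Ppard pairs were wider in the list without pyruvate, by 22 and 59 bases, and so was the Angptl4 pair, by 35 bases. Of the 5 Ppargc1b pairs, 4 were wider in the list with pyruvate, by 99, 63, 47 and 16 bases, and 1 was narrower there by 7 bases. Over all one-to-one pairs, 61.4% were wider in the list without pyruvate and 38.0% in the list with pyruvate, with a median difference of 22.0 bases (interquartile range -29.0 to 72.0, without minus with). The Ppard and Angptl4 differences and those of 16 and 7 bases at Ppargc1b were inside that range, and the other 3 Ppargc1b differences were outside it. Peak width also follows read depth and fragment size, and no width has an error here.

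**Figure D4:**
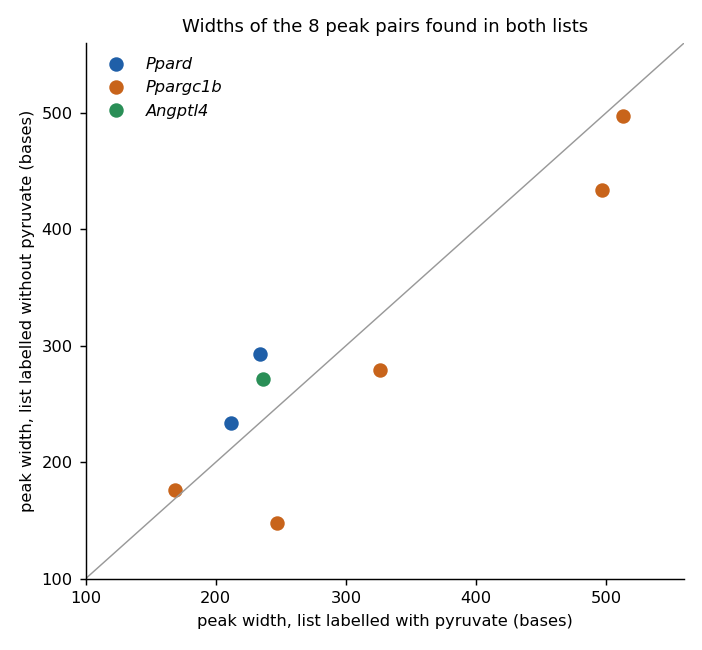
Width in bases of each of the 8 shared peaks of Ppard, Ppargc1b and Angptl4, in the list with pyruvate (horizontal) and the list without (vertical). The line marks equal widths. The Ppard and Angptl4 points lie above it and 4 of the 5 Ppargc1b points below it.

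A peak within 2 kb of the start, or in a flank whose side the files do not state, is called promoter-proximal here. Ppard, Ppargc1b and Angptl4 had one in both lists, as had 4.52% of 21900 RefSeq protein-coding genes. Fgf21 had one only in the list with pyruvate, as had 1.43% of those genes, while 4.13% had one only in the list without. The genes were picked with these peaks known, so the background is given for scale and nothing is read from it. Only Ppard had a peak within 1 kb of a start located from its own gene body.

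The genes with the most similar peak pattern were those with the same number of peaks and of shared peaks in each list and the closest summed widths. For Ppargc1b, Rapgef1 was the only gene with the same numbers, and its peaks summed to 2165 bases with pyruvate and 1531 without, against 2475 and 1720. Ppard had 106 such genes, led by Exoc6 (456 and 755 bases, against 446 and 770) and 2810055G20Rik (465 and 778). Angptl4 had 1559, led by O3far1 (235 and 271 bases, against 236 and 271) and Arfgap3 (236 and 269). Fgf21 had 618, led by Fn3k (276 bases in the list with pyruvate, against 275) and Abcg3 (274). The likeness is over 2 libraries only.

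The other genes of these pathways were taken as 4 lists with 77 genes in all, the 4 genes above included. Of the 77, 22 had a peak in the gene or a 2-kb flank in both lists, 2 only with pyruvate and 12 only without, or 28.6%, 2.60% and 15.6%. Over all RefSeq protein-coding genes these shares were 15.2%, 2.62% and 9.26%. Leaving out the 4 genes, which were picked with their peaks known, the counts were 19, 1 and 12 of 73. With the longer list trimmed by width to the size of the shorter, the 77 genes gave 20 in both lists, 4 only with pyruvate and 6 only without. The shares over all protein-coding genes are of the untrimmed lists and are no background for these trimmed counts. The median was 1 peak per list over the 36 genes that had any, and 1 over all genes the files name.

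Of 21 PPAR receptors and coregulators, 9 had a peak in both lists, 0 only with pyruvate and 2 only without. The main receptor of liver, Ppara, and the coactivator Ppargc1a had none, and Pparg, the receptor of fat cells, had a single peak of 161 bases, only without pyruvate. Among the RXR partners, Rxrg had a peak at its start in both lists (253 and 251 bases), Rxra had peaks inside the gene in both (2 and 3), and Rxrb had one only without pyruvate (241 bases, in a flank of unknown side). Ncoa1, a nuclear receptor coactivator gene, had a proximal peak in both lists, 279 and 315 bases wide. Esrrb had 1 peak in each list, and these did not overlap.

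Of 28 genes of fatty acid uptake and oxidation, 5 had a peak in both lists, 1 only with pyruvate and 5 only without. Acsl1, which activates long-chain fatty acids, had a proximal peak in both lists but not at one site. With pyruvate the proximal Acsl1 peak was 185 bases wide and 4 bases from the start, and without it was 278 bases wide and 1661 bases from the start. Acsl1 had 2 peaks in each list, and its other peak, 348 bases wide with pyruvate and 434 without, was shared. Lpl, the lipase that Angptl4 inhibits, had a shared peak of 185 and 227 bases inside the gene, and Cpt1a, the entry step of mitochondrial fatty acid oxidation, had 2 and 1 peaks. Pdk4, which restrains pyruvate dehydrogenase in fasting (236 bases, 187 bases from the start), and Plin5, a lipid droplet protein gene (261 bases), had a proximal peak only without pyruvate. The muscle carnitine transferase gene Cpt1b, Ucp3 and Acadm had none in either list.

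Of 13 genes of the Fgf21 axis and the stress response that induces it, 3 had a peak in both lists, 1 (Fgf21 itself) only with pyruvate and 3 only without. Atf4, the transcription factor of amino acid and mitochondrial stress, had a peak over its start in both lists, 397 and 523 bases wide, at chr15:80085233-80085630 with pyruvate and chr15:80085238-80085761 without. Atf3, a stress-induced factor, had one 94 and 93 bases from its start (203 and 173 bases wide). Chac1, a target of Atf4, had a peak of 193 bases over its start only without pyruvate. Fgfr1, the receptor gene, had 2 and 1 peaks inside the gene, and the co-receptor gene Klb had none.

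Of 15 fasting regulators of muscle, 5 had a peak in both lists and 2 (Foxo3 and Irs2) only without pyruvate. Prkag3, a subunit of the energy sensor AMPK in fast muscle, had 2 proximal peaks in each list, all shared, with widest peaks of 219 and 227 bases. Fbxo32, the atrophy ubiquitin ligase gene, had 3 and 2 peaks inside the gene, with widest peaks of 484 and 465 bases. Foxo1 had 1 peak in each list (238 and 289 bases), and these did not overlap.

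**Figure D5:**
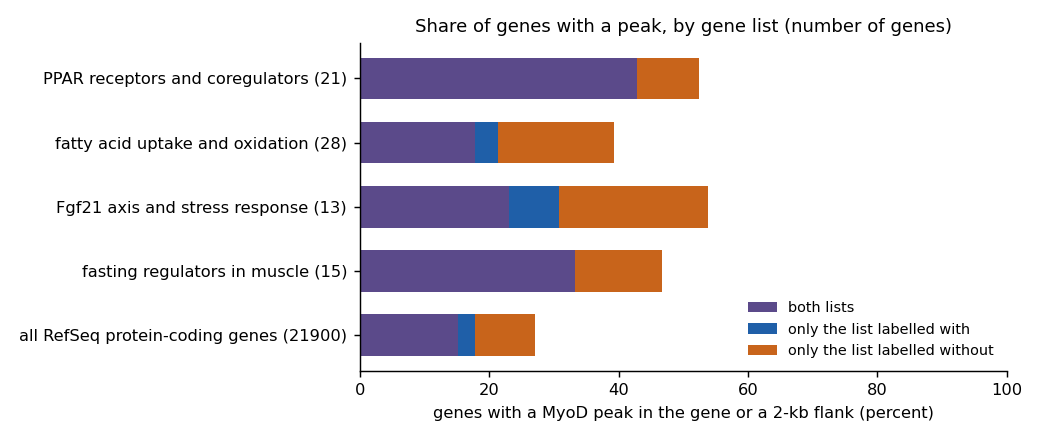
Percent of genes with a MyoD peak in the gene or a 2-kb flank, for the 4 pathway lists and for all 21900 RefSeq protein-coding genes, with the number of genes in brackets. Bar colours split genes with a peak in both lists, only with pyruvate and only without. A peak in both lists was held by 42.9% of PPAR receptors and coregulators (Ppard and Ppargc1b, picked with their peaks known, included), 17.9% of fatty acid genes (Angptl4 included), 23.1% of Fgf21 axis genes and 33.3% of fasting regulators, beside 15.2% of all protein-coding genes.

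The files annotate 30 genes to the KEGG pathway of PPAR signalling, among them Ppard and Angptl4. Of these, 20 had a peak in both lists, 1 (Acsl5) only with pyruvate and 9 only without, against 55.1%, 9.95% and 35.0% of all genes the files name. Every gene in the files has a peak by construction, so this count compares them with other bound genes.

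Marker genes were looked up for the labelled cell type, which peaks of 1 factor cannot verify. All 8 muscle markers had a promoter-proximal peak in at least 1 list, 5 in both (Myog, Des, Chrna1, Tnnt3 and Cdh15) and 3 (Ckm, Acta1 and Myh3) only with pyruvate. Acta1 also had a peak without pyruvate, though not a promoter-proximal one, whereas Ckm and Myh3 had none there. None of the 5 adipocyte markers had any peak in the gene or a 2-kb flank. Of 5 hepatocyte markers 1 (Ttr) had one only with pyruvate, and of 5 fibroblast markers 2 (Col3a1 and Dcn) only without. Among these genes, only Col3a1 had a proximal one. Counted by any peak, 6 muscle markers were in both lists and 2 only with pyruvate. Over all protein-coding genes, any peak was held by 15.2% in both lists, 2.62% only with and 9.26% only without. For proximal peaks the shares were 4.52%, 1.43% and 4.13%. With 5 genes per type, the counts outside muscle cannot be told apart from these shares. Peaks of a bound factor do not measure expression. Peak height could not be used, since all fold enrichment values in the files are 0, and read depth is unknown. Where a list lacks a peak, binding too weak to be called there is not told apart from none.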

How the data were processed

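MyoD ChIP-seq peaks of 2 libraries were used, grouped by their titles. The deposited file names could be read the other way round, and nothing measured tells which is right. Per the submitters' processing notes, the tools were MACS2 2.1.1, Bowtie2 2.1.0 and bcl2fastq 2.19 and the build mm9; how peaks were thresholded, how inputs served and which annotation was used is not given in the sources used here. Libraries had 15 PCR cycles and fragments of about 250 bp, per the labels' protocols. The deposited tables pair peaks with gene bodies and 2000-base flanks, per the file headers and values.

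The 13076 and 20902 rows (with, then without pyruvate) were reduced to distinct peaks. Coordinates are as deposited, width is end minus start, and whether peak starts count from 0 or 1, which would shift distances by 1 base, is not stated. Peaks overlapping by at least 1 base were called shared. A start site came from the body, or from both flanks where only these were listed, for 5818 of 7235 genes; distances use the nearest edge. Width percentiles are mid-ranks within a list. Symbols were matched to RefSeq (GRCm38.p6) for 6035 genes, by current or older names. The promoter table held Ppard and Fgf21 but was not matched for Ppargc1b and Angptl4.

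The members and gene lists were chosen with earlier results of these data known. The text names all 4 genes, pathway genes with a proximal peak, up to 2 most similar genes per member and the nearest listed genes. Left out is 1 nearest gene, 53080 bases from Angptl4, whose symbol reads as a date. Other genes named were chosen after their values were seen. No test was made, with 1 library per condition. Overlap code was tested on simulated lists. Software was matplotlib 3.10.9, scipy 1.17.1, numpy 2.4.6, pandas 2.3.3 and Python 3.11.15.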

Additional observations from a re-analysis of the deposited data

How the results depend on the processing

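Of 37 alternatives, 22 stayed within bounds (the 95% exact binomial interval of a share, or 1.5 times a count) and 15 moved. Those without Ppargc1b or by peak centre were chosen after seeing the data. The share intervals, 34.9% to 90.1% with pyruvate and 44.4% to 97.5% without, treat peaks as independent, although most are in Ppargc1b. Every share alternative fell inside these wide intervals. A fall from 3 to 2 proximal members without pyruvate also counted as within bounds. The bounds are thus too wide to show that a result is stable, and nothing is read from the 22. With peaks of at least 250 bases, 5 member peaks were left in each list and 1 member per list was promoter-proximal (Fgf21 with pyruvate, Angptl4 without). Fewer peaks were used, and pathway genes with a peak fell to 13 in both lists and 6 only without. Those with a peak only with pyruvate rose from 2 to 3. Without Ppargc1b, 4 member peaks per list were left. With 1 kb of located starts, 1 member per list (Ppard) was proximal. When the longer list was trimmed by width to the size of the shorter (218 bases or more), 4 pathway genes had a peak only with pyruvate and 6 only without, and Ppargc1b lost its narrow proximal peak without pyruvate. With promoter-proximal peaks only, they were 9 in both, 1 only with and 4 only without. By peak centre, Angptl4 was no longer proximal in either list. A reciprocal overlap of 50% or centres within 100 bases gave the same 8 shared peaks per list. No paired analysis was possible because each condition has 1 library.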
